A study of Mus musculus with 16 samples.

Results

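The 9 genes described here are the DNA methyltransferase genes Dnmt1, Dnmt3a and Dnmt3b, the Tet genes Tet1, Tet2 and Tet3, and the Gadd45 genes Gadd45a, Gadd45b and Gadd45g. They were chosen by symbol, and all 9 were among the 17986 genes with a value in every library. Expression had been measured by bulk RNA sequencing of CA1, a field of the hippocampus, which was cut by laser microdissection from 8 µm sections of frozen, unperfused brains of male mice aged 3 to 6 months. There were 4 groups: C57Bl6 wild type mice and Neil3-/- mice on the C57Bl6 background, each in the home cage (2 libraries per genotype) or after spatial exploration (3 libraries per genotype), with 1 animal per library. Exploration was an open field arena with 50 cm sides, entered for 20 min per day over 1 week, and the mice were killed 20 min after the last session. Neil3 encodes a DNA glycosylase of base excision repair. The values are FPKM, that is fragments scaled to transcript length and library depth.

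The genotype labels did not match the transcript of Neil3. Neil3 was listed at 0 in both wild type home cage libraries and at 0, 0 and 0.05 FPKM in the wild type libraries after exploration. In the libraries labelled Neil3-/- it stood at 13.77 and 15.22 FPKM in the home cage and at 15.13, 11.85 and 8.35 FPKM after exploration. Groups are therefore called WT-labelled and KO-labelled throughout, and the direction of each genotype comparison rests on the labels as given.

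DNA methyltransferases place a methyl group on cytosine, mostly where a guanine follows (CpG). Dnmt1 copies existing marks after replication and is kept in neurons that no longer divide, Dnmt3a sets new marks and is the main de novo enzyme of the postnatal brain, and Dnmt3b sets new marks mostly in the early embryo. The Tet enzymes oxidise 5-methylcytosine to 5-hydroxymethylcytosine and further forms, which base excision repair can replace by plain cytosine. The Gadd45 proteins are small stress and growth arrest proteins without known enzyme activity of their own. Gadd45b is an immediate early gene of neurons and has been tied to activity-dependent demethylation of promoters such as those of Bdnf and Fgf1.

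Promoters of the 3 Gadd45 genes are shown first, because their results after exploration were not the same. The genes were not tested against each other. Every exploration library stood above the home cage for Gadd45b and Gadd45g under both labels, and for Gadd45a under the WT label only. Gadd45b passed the test under both labels, Gadd45g under the KO label only and Gadd45a under neither. Each runs from 250 bases before to 50 bases after the annotated start of transcription, on the strand of the gene, in RefSeq's GRCm38.p6 table. Capitals mark CpG. The Gadd45b window is chr10:80929841-80930140 on the plus strand, that of Gadd45g chr13:51846425-51846724 on the plus strand and that of Gadd45a chr6:67037358-67037657 on the minus strand.
Gadd45b: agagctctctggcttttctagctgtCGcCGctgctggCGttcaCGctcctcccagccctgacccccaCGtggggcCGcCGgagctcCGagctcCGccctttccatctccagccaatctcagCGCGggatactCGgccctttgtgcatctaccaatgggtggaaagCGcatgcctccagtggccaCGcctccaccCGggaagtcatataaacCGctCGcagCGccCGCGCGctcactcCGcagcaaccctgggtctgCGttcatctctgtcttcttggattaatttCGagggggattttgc
Gadd45g: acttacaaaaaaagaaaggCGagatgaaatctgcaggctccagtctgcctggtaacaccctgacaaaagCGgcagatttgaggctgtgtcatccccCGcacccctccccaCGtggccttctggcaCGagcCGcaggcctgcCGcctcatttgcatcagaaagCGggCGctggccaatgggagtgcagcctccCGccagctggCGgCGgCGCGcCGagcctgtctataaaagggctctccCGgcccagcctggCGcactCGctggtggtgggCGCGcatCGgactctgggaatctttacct
Gadd45a: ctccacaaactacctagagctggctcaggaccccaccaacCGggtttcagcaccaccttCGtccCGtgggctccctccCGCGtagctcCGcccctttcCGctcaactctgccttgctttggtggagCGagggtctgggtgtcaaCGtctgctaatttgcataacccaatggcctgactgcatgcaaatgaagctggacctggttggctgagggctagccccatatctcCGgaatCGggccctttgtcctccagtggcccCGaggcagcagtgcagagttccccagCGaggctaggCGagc
The Gadd45b window holds 24 CpG, the Gadd45g window 21 and the Gadd45a window 14, against a median of 7 over 32851 promoters of the same length. A TATA motif (TATAAA, either strand) starts at position -46 in Gadd45b and at -27 in Gadd45g, counted from the start of transcription, and 13.6% of all promoters hold it. No other window of the 9 genes held TATAAA. The octamer ATTTGCAT occurs at -97 and, on the opposite strand, at -70 in Gadd45a and at -103 in Gadd45g, and 1.74% of all promoters hold it. TATAAA and ATTTGCAT were looked for after the sequences had been read. The cyclic AMP response element TGACGTCA (1.79% of all promoters), the AP-1 motif TGANTCA (7.81%), the Egr motif GCGTGGGCG (0.612%) and the CArG box (1.63%) were searched on both strands and were not in the window of any of the 9 genes. These are matches of letters in a window and describe no binding.

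CpG content was highest at Tet2, whose window holds 57 CpG, more than 99.8% of all promoters. The starts of Dnmt3a in the table hold 46, 47 and 18 CpG, that of Dnmt3b 30 and those of Dnmt1 2, 12 and 33. The Tet3 window holds 22 and the Tet1 window 17.

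In GRCm38.p6, Dnmt1 (gene ID 13433) spans 20907206 to 20959888 of chromosome 9, Dnmt3a (13435) 3801559 to 3914443 of chromosome 12 and Dnmt3b (13436) 153649411 to 153687730 of chromosome 2. Tet1 (52463) spans 62804570 to 62887469 of chromosome 10, Tet2 (214133) 133463677 to 133545136 of chromosome 3 and Tet3 (194388) 83362373 to 83457208 of chromosome 6. The Gadd45 genes are short: Gadd45a (13197) spans 67035096 to 67037407 of chromosome 6, Gadd45b (17873) 80930091 to 80932204 of chromosome 10 and Gadd45g (23882) 51846675 to 51848475 of chromosome 13. FPKM were given per gene, so exons and isoforms cannot be read apart, and an antisense transcript at Dnmt3a, Dnmt3aos, was listed at 0 in 10 of 10 libraries.

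The level of the 9 genes, as FPKM over all 10 libraries, ran from Gadd45b (lowest 11.78, median 21.2, highest 28.58) and Gadd45g (7.63, 11.25 and 17.33) through Dnmt1 (3.96, 5.055 and 7.14), Dnmt3a (1.83, 2.89 and 5.86), Tet3 (1.58, 2.47 and 4.54), Tet2 (0.74, 1.355 and 3.66) and Gadd45a (1.07, 1.645 and 2.54) to Tet1 (0.19, 0.30 and 0.49) and Dnmt3b (0, 0.045 and 0.07). Tet2 and Gadd45a changed places between the environments. Tet2 was the higher in 4 of 4 home cage libraries and Gadd45a in 6 of 6 exploration libraries. Dnmt3a exceeded Dnmt1 in 1 library. For the other neighbours the order was the same in all 10 libraries. In each family the same member had the largest group mean share throughout. Gadd45b made up 56.4% to 62.4% of the summed Gadd45 FPKM (group means), Tet3 50.8% to 60.7% of the Tet sum and Dnmt1 50.8% to 67.5% of the Dnmt sum. Some leads were narrow. In the WT-labelled home cage Dnmt1 held 50.8% and Dnmt3a 48.6%, and in KO-labelled home cage library 1 Tet3 held 47.7% and Tet2 46.2%.

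**Figure D1:**
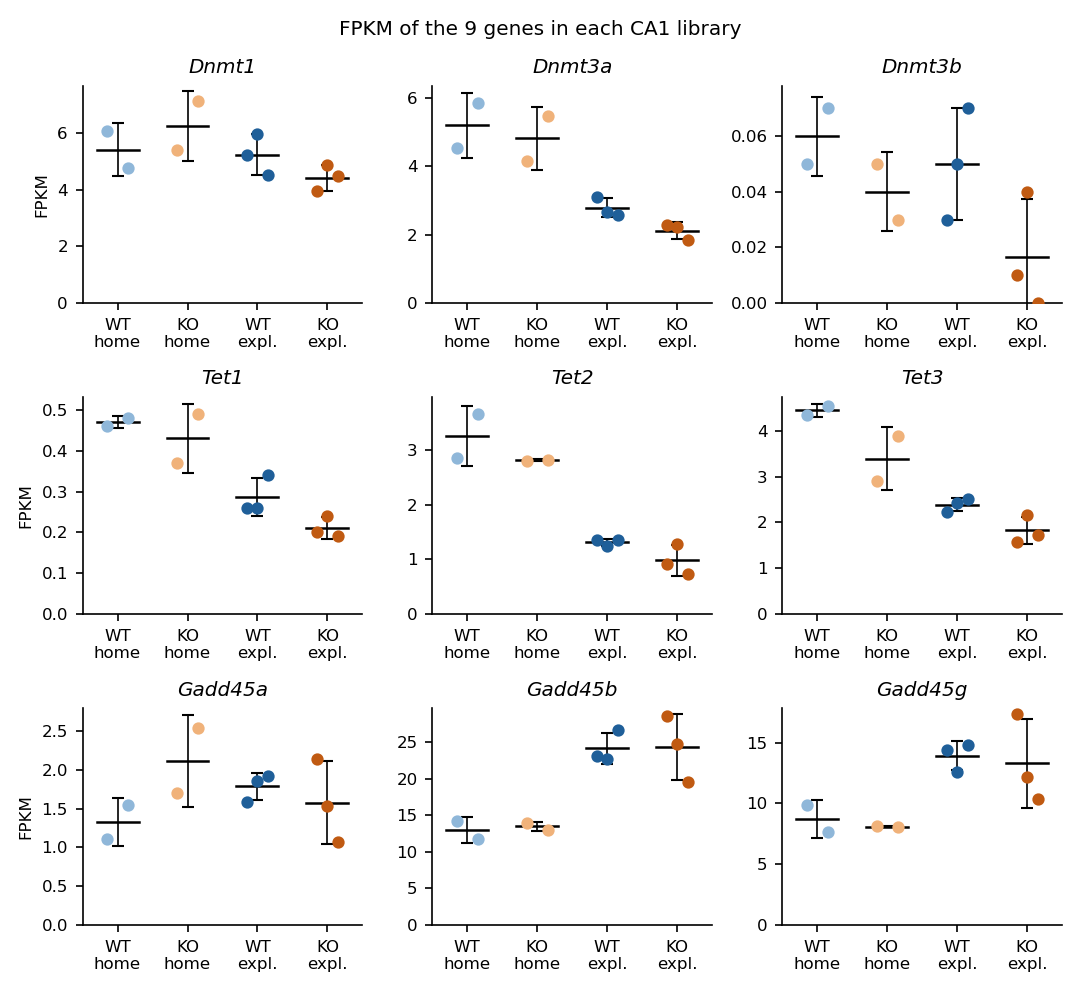
FPKM of the 9 genes in every library, 1 panel per gene with its own linear axis from 0, for the 4 groups of genotype label and environment. Points are libraries, and bars are the mean with the SD (n = 2 in the home cage, n = 3 after exploration). Tet2 and Tet3 sit lower and Gadd45b and Gadd45g higher after exploration than in the home cage in every library.

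Depth was alike across libraries, at an estimated 18100000 to 19900000 fragments, with an FPKM sum of 405718 to 466701 and 11114 to 11623 genes at or above 1 FPKM. Estimated fragments behind a value ranged from 322 to 892 for Tet3 and from 263 to 663 for Gadd45b, but only from 23 to 55 for Gadd45a, 49 to 129 for Tet1 and 0 to 5 for Dnmt3b. Dnmt3b and Tet1 did not reach 1 FPKM in 2 libraries and so were not tested with the 7 other genes. All 5 CA1 pyramidal markers (Wfs1, Fibcd1, Pou3f1, Mpped1 and Spink8) were present, with a summed level of 693.83 to 907.71 FPKM, which matches the labelled tissue. Of the CA2 and CA3 markers, Amigo2 ranged from 0.9 to 16.93 FPKM and Cpne4 from 1.04 to 13.45 FPKM. In WT-labelled home cage library 1 they stood at 16.11 and 13.45 FPKM, against 1.78 and 1.73 FPKM in library 2. Rgs14 (94.11 to 127.09 FPKM) and Pvrl3 (4.08 to 6.35 FPKM) varied less, and Iyd was at most 0.18 FPKM. Choroid plexus markers (Ttr, Folr1, Kl and Clic6) summed to 235.00 FPKM in WT-labelled home cage library 1 and to 131.29 and 107.74 FPKM in WT-labelled exploration libraries 1 and 2, against 9.37 to 17.66 FPKM in the 7 other libraries.

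The environments were compared first within the WT-labelled libraries. Each environment stands in a table of its own in the deposited data, so environment and table cannot be told apart in any exploration comparison. After exploration Gadd45b rose and Dnmt3a, Tet2 and Tet3 fell. Thus 4 of the 7 tested genes were called, 1 higher and 3 lower, where 6.31% of all 11892 tested genes were called (240 higher and 510 lower). Called means a Benjamini-Hochberg adjusted p under 0.05 in limma over all tested genes, and each log2 change was taken after adding 1 to the FPKM, so changes of low genes come out too small. The median log2 change over all tested genes was -0.02. In bulk tissue, fewer cells of a type and less RNA per cell cannot be told apart.

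Dnmt3a stood at 4.53 and 5.86 FPKM in the WT-labelled home cage libraries and at 3.11, 2.67 and 2.59 FPKM after exploration. The groups did not overlap, and all 3 exploration libraries lay below both home cage libraries. In groups this small a lack of overlap is common by order alone, and its share over all tested genes was not counted. The log2 change was -0.70 (SE 0.138, 95% interval -1.01 to -0.40, adjusted p = 0.0143), and the mean FPKM after exploration was 0.537 times that in the home cage.

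Dnmt1, the maintenance enzyme, stood at 6.09 and 4.77 FPKM in the home cage and at 5.24, 5.97 and 4.52 FPKM after exploration. The groups overlapped, with a log2 change of -0.04 (interval -0.36 to 0.27, adjusted p = 0.896). With Dnmt3a lower, the share of Dnmt1 in the summed Dnmt FPKM stood at 50.8% ± 8.8 (SD, n = 2) in the home cage and at 64.7% ± 3.4 (SD, n = 3) after exploration. Dnmt3b was listed at 0.05 and 0.07 FPKM in the home cage and at 0.03, 0.05 and 0.07 FPKM after exploration, a level of a few fragments at which no difference could be detected.

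Tet2 stood at 2.87 and 3.66 FPKM in the WT-labelled home cage libraries and at 1.36, 1.24 and 1.35 FPKM after exploration. The 3 exploration libraries lay close together and far below the home cage. Its log2 change of -0.88 (SE 0.136, interval -1.17 to -0.58, adjusted p = 0.00427) was the lowest of the 7 tested genes, and its mean FPKM after exploration was 0.403 times that in the home cage.

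Tet3, the most abundant Tet gene, stood at 4.34 and 4.54 FPKM in the home cage and at 2.22, 2.43 and 2.51 FPKM after exploration, again without overlap. The log2 change was -0.68 (SE 0.129, interval -0.97 to -0.40, adjusted p = 0.0118) and the ratio of means 0.538. Tet1 stood at 0.46 and 0.48 FPKM in the home cage and at 0.26, 0.26 and 0.34 FPKM after exploration. These groups did not overlap, but in a fit without the filter on low values Tet1 did not pass (log2 change -0.19, adjusted p = 0.0786). Summed over the 3 genes, Tet FPKM was 8.18 ± 0.71 (SD, n = 2) in the home cage and 3.99 ± 0.19 (SD, n = 3) after exploration.

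Gadd45b stood at 14.31 and 11.78 FPKM in the WT-labelled home cage libraries and at 23.14, 22.77 and 26.65 FPKM after exploration. Every exploration library was higher than both home cage libraries. The log2 change was 0.85 (SE 0.138, interval 0.54 to 1.15, adjusted p = 0.00538), and the mean FPKM after exploration was 1.85 times that in the home cage.

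Gadd45g stood at 9.84 and 7.63 FPKM in the home cage and at 14.40, 12.55 and 14.81 FPKM after exploration. The groups did not overlap, but the gene narrowly missed the threshold (log2 change 0.62, SE 0.171, interval 0.25 to 1.00, adjusted p = 0.0528). It was called with median-of-ratios size factors (0.65, adjusted p = 0.0379), with quantile normalization (0.70, adjusted p = 0.0324), with only the 2 groups fitted (adjusted p = 0.0125) and without KO-labelled exploration library 1 (0.0103) or 3 (0.0241), which enter its fit through the shared spread. It was not called in the other alternatives, with an adjusted p of 0.112 without a filter and 0.38 without WT-labelled home cage library 2. Gadd45a, which responds to p53 in other tissues, stood at 1.11 and 1.55 FPKM in the home cage and at 1.59, 1.86 and 1.92 FPKM after exploration, without overlap and without a call (0.26, interval -0.13 to 0.66, adjusted p = 0.414).

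The WT-labelled calls were not kept in every fit that left out a library. Without WT-labelled home cage library 2, none of the 7 genes was called by limma, with Dnmt3a at -0.55 (adjusted p = 0.201), Tet2 at -0.74 (0.0912), Tet3 at -0.66 (0.135) and Gadd45b at 0.72 (0.107). That fit keeps 1 library in the group and takes its spread from the other groups, and the 4 changes kept their direction. Without the 3 libraries with high choroid plexus markers, which left 1 library per WT-labelled group, none was called either, while the log2 changes were -0.93 for Dnmt3a, -0.99 for Tet2, -0.66 for Tet3 and 1.11 for Gadd45b. Tet3 also missed the threshold without WT-labelled home cage library 1 (adjusted p = 0.0647) or exploration library 1 (0.0547), and Dnmt3a without exploration library 2 (0.0503).

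In the KO-labelled libraries the question was the same, and 5 of the 7 tested genes were called after exploration. Gadd45b and Gadd45g rose, and Dnmt3a, Tet2 and Tet3 fell. Of all tested genes 28.6% were called, 1429 higher and 1971 lower, and the median log2 change over all tested genes was -0.041. The members' 5 calls are read against that share. The gap to the WT-labelled share depends on the fit: with only the groups compared in it, 1690 genes were called under the WT label and 1705 under the KO label.

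Dnmt3a stood at 4.17 and 5.47 FPKM in the KO-labelled home cage libraries and at 2.28, 2.23 and 1.83 FPKM after exploration. The groups did not overlap, the log2 change was -0.90 (SE 0.138, adjusted p = 0.00199) and the ratio of means 0.438. Dnmt1 stood at 5.40 and 7.14 FPKM in the home cage and at 3.96, 4.87 and 4.48 FPKM after exploration. All 3 exploration libraries were lower, but the gene just missed the threshold (-0.41, interval -0.73 to -0.10, adjusted p = 0.0506). It was called without KO-labelled home cage library 1 (-0.59, adjusted p = 0.0251) and lay further from a call without library 2 (-0.24, adjusted p = 0.419). Both fits leave 1 library in that group, and the lone library is assumed to vary like the other groups. The change was also smaller with quantile normalization (-0.26, adjusted p = 0.182) and with length and GC trends removed (-0.22, adjusted p = 0.209).

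Dnmt3b was listed at 0.05 and 0.03 FPKM in the KO-labelled home cage libraries and at 0.01, 0.04 and 0 FPKM after exploration. The summed Dnmt FPKM was 11.13 ± 2.14 (SD, n = 2) in the home cage and 6.57 ± 0.50 (SD, n = 3) after exploration.

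Tet2 stood at 2.81 and 2.83 FPKM in the KO-labelled home cage libraries and at 0.92, 1.29 and 0.74 FPKM after exploration. Its log2 change of -0.96 (SE 0.136, adjusted p = 0.00163) was again the lowest of the 7 genes, with a ratio of means of 0.349. Tet3 stood at 2.90 and 3.88 FPKM in the home cage and at 1.58, 2.16 and 1.73 FPKM after exploration (-0.63, SE 0.129, adjusted p = 0.00553, ratio of means 0.538). Both Tet genes separated the environments without overlap.

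Tet1 stood at 0.37 and 0.49 FPKM in the KO-labelled home cage libraries and at 0.20, 0.24 and 0.19 FPKM after exploration. In the fit without the filter on low values it passed the threshold (-0.24, SE 0.05, adjusted p = 0.0174). The summed Tet FPKM was 6.64 ± 0.79 (SD, n = 2) in the home cage and 3.02 ± 0.58 (SD, n = 3) after exploration, with Tet2 at 42.8% and 32.3% of the sum and Tet3 at 50.8% and 60.7%.

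Gadd45b stood at 13.92 and 13.07 FPKM in the KO-labelled home cage libraries and at 28.58, 24.81 and 19.62 FPKM after exploration. It rose by 0.79 on the log2 scale (SE 0.138, adjusted p = 0.00296), and the ratio of means was 1.80. Gadd45g stood at 8.10 and 8.06 FPKM in the home cage and at 17.33, 12.17 and 10.33 FPKM after exploration (0.62, SE 0.171, adjusted p = 0.0207, ratio of means 1.64). For both genes the 3 exploration libraries were spread widely but none reached down to the home cage.

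The same library, KO-labelled exploration library 1, was the highest for Gadd45b and Gadd45g, and library 3 the lowest. Gadd45a followed that order too, at 2.14, 1.53 and 1.07 FPKM, against 1.70 and 2.54 FPKM in the home cage. These groups overlapped and Gadd45a was not called (-0.28, adjusted p = 0.258).

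Under the KO label, Dnmt3a, Tet2 and Gadd45b were called in each fit that left out 1 library. Without KO-labelled home cage library 2, Tet3 (-0.47, adjusted p = 0.0923) and Gadd45g (0.62, adjusted p = 0.14) were not called, and 505 of all tested genes were called in place of 3400. Gadd45g was also lost without KO-labelled home cage library 1 (0.63, adjusted p = 0.0594), and with no filter on low values (adjusted p = 0.0517).

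**Figure D2:**
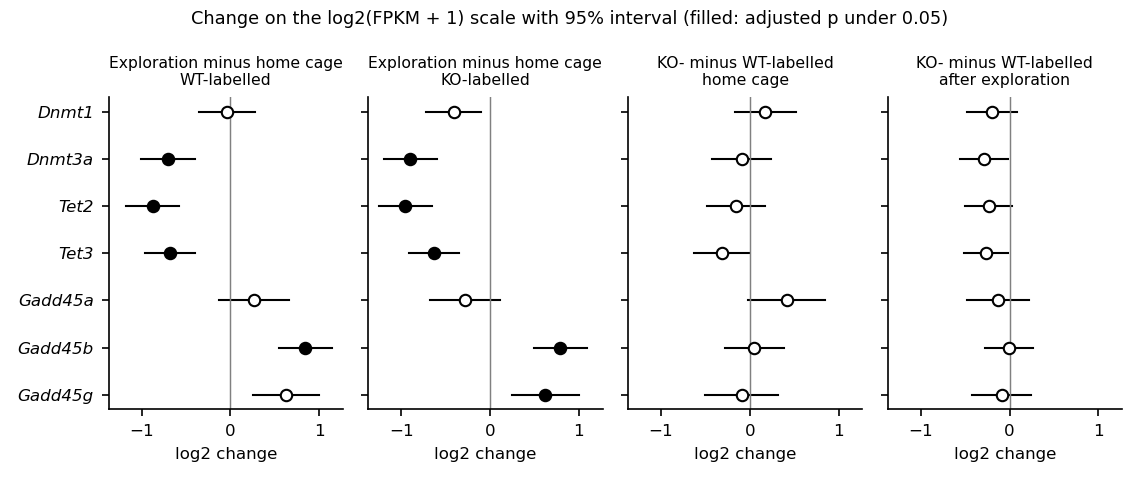
Log2 change on the log2(FPKM + 1) scale (x axis) of the 7 tested genes in the 2 exploration comparisons and the 2 genotype comparisons, with the 95% interval as a bar. Filled points passed an adjusted p of 0.05. Dnmt3a, Tet2 and Tet3 lie below 0 and Gadd45b above 0 in both exploration comparisons, while every genotype comparison has open points only.

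Transcript length moved with the change between environments over all genes, which were divided into 10 bins of equal size by length. In the bin with the longest transcripts (6178 nt or more, 1177 genes), the median log2 change after exploration was -0.199 in the WT-labelled and -0.267 in the KO-labelled libraries, and in the shortest bin (107 to 1162 nt) it was 0.196 and 0.213. Of the longest bin, 11.6% were called lower under the WT label and 39.3% under the KO label. The members that fell have long transcripts, at 8737 nt for Dnmt3a, 9179 nt for Tet2 and 10904 nt for Tet3, and those that rose have short ones, at 1284 nt for Gadd45b and 1071 nt for Gadd45g.

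The called members were also set against tested genes of like length. In the WT-labelled libraries, 1.9% of the genes in the longest bin had a lower change than Tet2, 3.5% a lower one than Dnmt3a and 3.7% a lower one than Tet3. Gadd45b was exceeded by 0.2% of its own bin and Gadd45g by 4.3% of the shortest bin. In the KO-labelled libraries the shares were 2.6% for Tet2, 3.1% for Dnmt3a, 10.5% for Tet3, 2.7% for Gadd45b and 9.2% for Gadd45g. Gadd45a, of like length to Gadd45b at 1223 nt, was exceeded by 15.1% of its bin under the WT label and by 89.4% under the KO label. Dnmt1 (5367 nt) lay inside the bulk of its bin, with 69.2% and 18.1% of genes lower.

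When trends with length and GC content were removed from every library, an alternative added after the data had been seen, the changes of Dnmt3a, Tet2, Tet3, Gadd45b and Gadd45g were smaller. In the WT-labelled libraries Tet2 (-0.68, adjusted p = 0.0148), Tet3 (-0.46, adjusted p = 0.0325) and Gadd45b (0.70, adjusted p = 0.0122) were still called and Dnmt3a was not (-0.52, adjusted p = 0.0505), nor was Gadd45g (0.44, adjusted p = 0.155). In the KO-labelled libraries Dnmt3a (-0.61, adjusted p = 0.0086), Tet2 (-0.75, adjusted p = 0.00339), Gadd45b (0.67, adjusted p = 0.00525) and Gadd45g (0.48, adjusted p = 0.0496) were still called. Tet3 was not (-0.27, adjusted p = 0.0796). Gadd45a under the KO label moved away from 0, from -0.28 to -0.47 (adjusted p = 0.0818).

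**Figure D3:**
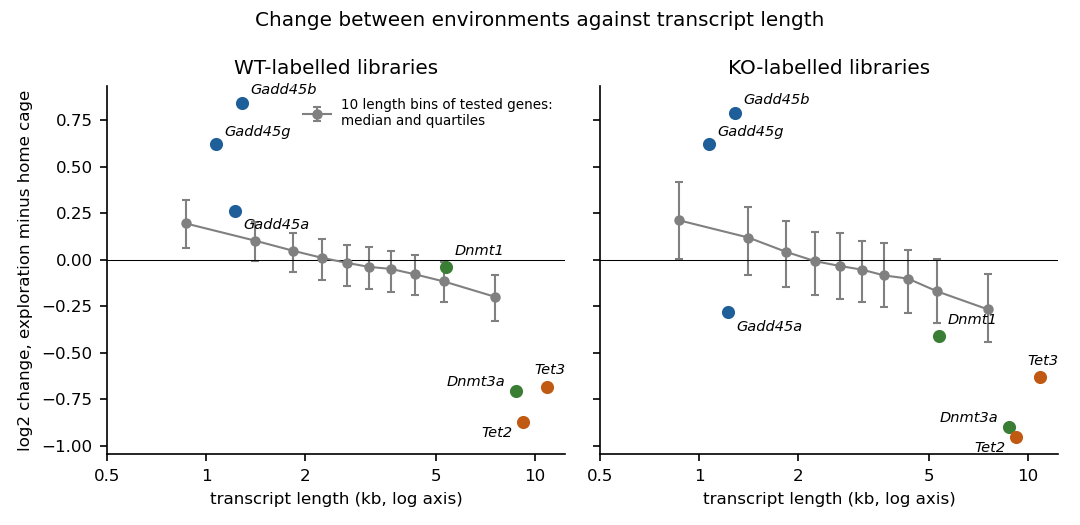
Log2 change after exploration (y axis) against transcript length in kb (log x axis) for the WT-labelled and the KO-labelled libraries. Grey points are the 10 length bins of the tested genes at their median length, with the median change and the quartiles as bars, and coloured points are the 7 tested members. The grey line falls from 0.196 to -0.199 (WT-labelled) and from 0.213 to -0.267 (KO-labelled), and Tet2, Dnmt3a and Tet3 lie below its long end.

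**Figure D4:**
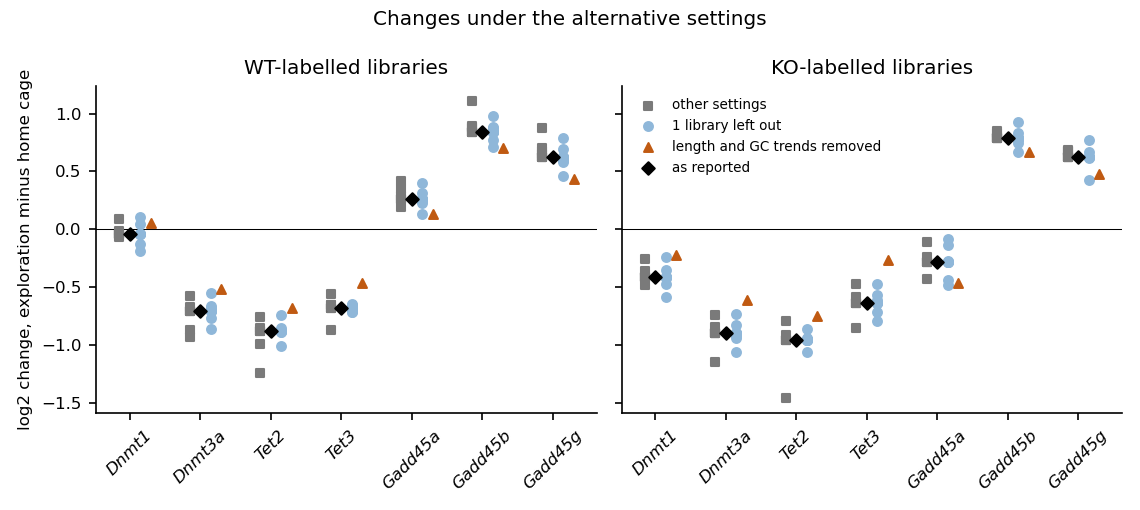
Log2 change of the 7 tested members in the 2 exploration comparisons (y axis) as reported (black diamonds), with 1 library left out (blue circles), with length and GC trends removed (orange triangles) and under the other settings (grey squares). Points of 1 gene stay on the same side of 0 for Dnmt3a, Tet2, Tet3, Gadd45b and Gadd45g in the alternatives run.

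Marker genes of other cell types also differed between the environments. In the WT-labelled libraries, 4 of 6 oligodendrocyte markers were higher after exploration (summed FPKM 137.40 to 164.34 in the home cage and 196.95 to 365.39 after exploration), as were 3 of 5 microglia markers (24.48 to 25.16 and 31.77 to 38.24) and 2 of 5 astrocyte markers (57.99 to 64.03 and 69.09 to 88.87). Blood markers (Hba-a1, Hbb-bs, Hbb-bt and Alas2) summed to 76.26 to 114.61 FPKM in the home cage and 175.71 to 236.18 FPKM after exploration, with 2 of 3 tested called higher. Interneuron markers summed to 200.60 to 221.95 FPKM and then to 287.05 to 344.89 FPKM, with 1 of 6 called higher. In the KO-labelled libraries no oligodendrocyte, microglia or astrocyte marker was called after exploration. Interneuron markers were higher there too, with 2 of 6 called (summed FPKM 214.77 to 230.97 and 265.24 to 322.91). Of the 5 CA1 pyramidal markers 2 were higher and 2 lower there. Among tested markers of other lists, 2 of 4 for CA2 and CA3 and the 1 for dentate granule cells were higher. So were 1 of 2 for choroid plexus and 1 of 3 for blood. The KO-label counts are set against the 28.6% of all tested genes called under that label, and the WT-label counts against 6.31%. The dentate granule marker was Lct, while the rest of its list was below 1 FPKM and moved in both directions. The choroid plexus marker was Kl (9.83 and 8.61 FPKM in the home cage, 10.25, 12.32 and 14.13 after exploration). Ttr, the other one tested, stood at 4.24 and 0.73, then at 0.23, 0.04 and 2.35 FPKM. No marker was at 0 in every library, and the part of these markers in the changes of Dnmt3a, Tet2, Tet3, Gadd45b and Gadd45g was not tested.

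Genotype was compared within each environment and over their mean. None of the 7 tested members passed the threshold in limma in any of these comparisons. In the home cage 3.57% of all tested genes were called. An unadjusted p under 0.05 was found for 1 of the 7 members and for 18.3% of all tested genes. After exploration 0.597% of all tested genes were called, and an unadjusted p under 0.05 was found for 2 of the 7 members and for 17.2% of all tested genes. Over the mean of both environments 2.13% were called, with 1 member and 20.2% of all tested genes under 0.05 before adjustment.

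Tet3 was the member that came nearest. Its libraries did not overlap between genotype labels in the home cage (4.34 and 4.54 FPKM WT-labelled, 2.90 and 3.88 FPKM KO-labelled), nor after exploration (2.22, 2.43 and 2.51 against 1.58, 2.16 and 1.73 FPKM). The KO-labelled libraries were lower each time. With 2 libraries per label in the home cage, a lack of overlap is common by order alone. Its share over all tested genes was not counted, here or for the members below. The log2 difference, KO-labelled minus WT-labelled, was -0.32 (SE 0.141, adjusted p = 0.256) in the home cage and -0.27 (adjusted p = 0.267) after exploration. Over both environments it was -0.29 (SE 0.091, interval -0.49 to -0.09, adjusted p = 0.106).

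Dnmt3a did not overlap between genotype labels after exploration (3.11, 2.67 and 2.59 against 2.28, 2.23 and 1.83 FPKM, log2 difference -0.28, adjusted p = 0.27) but did in the home cage (-0.09, adjusted p = 0.80). Tet2 was lower in the KO-labelled home cage libraries without overlap (-0.15, adjusted p = 0.643) and overlapped after exploration (-0.23, adjusted p = 0.345). Gadd45a was higher in the KO-labelled home cage libraries without overlap (0.41, ratio of means 1.59, adjusted p = 0.291), at 23 to 55 estimated fragments per library.

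After exploration the log2 difference was below 0 for 7 of 7 tested members, against 53.5% of all tested genes, with a median of -0.196 against -0.015 over all tested genes. Gadd45b, at -0.004, turned to 0.018 with size factors and to 0.006 with length and GC trends removed, so the count was then 6 of 7. Without KO-labelled exploration library 3 it was 4 of 7. The members share the same 6 libraries, so this count describes those libraries. The mean FPKM of Gadd45b ran the other way from its mean log2 value, with an adjusted p of 0.99 and means of 24.19 ± 2.14 FPKM (SD, n = 3) WT-labelled and 24.34 ± 4.50 FPKM (SD, n = 3) KO-labelled. Gadd45g (-0.09, adjusted p = 0.796), Dnmt1 (-0.20, adjusted p = 0.451) and Gadd45a (-0.13, adjusted p = 0.709) overlapped between the labels.

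In the home cage, KO-labelled libraries had higher astrocyte markers (90.42 to 116.46 FPKM summed, against 57.99 to 64.03 WT-labelled, 2 of 5 called higher) and microglia markers (32.15 to 36.46 against 24.48 to 25.16, 1 of 5 called higher). In the CA1 pyramidal list 1 of 5 was higher and 1 lower, 1 of 4 tested endothelium markers was higher and 1 of 2 choroid plexus markers lower. The 1 tested dentate granule marker, Lct, was lower (5.44 and 1.06 FPKM against 19.62 and 15.17 WT-labelled). Lct made up most of the list sum (1.74 to 6.35 against 15.82 to 20.14). The other dentate granule markers were below 1 FPKM in every library. Among them Prox1 was higher in the KO-labelled libraries (0.3 and 0.5 against 0.18 and 0.2). The home cage marker counts stand beside 3.57% of all tested genes called. After exploration no marker of the 11 lists was called between genotype labels, where 0.597% of all tested genes were. The part of these markers in the genotype values of Tet3 and Gadd45a was not tested.

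The response to exploration was then compared between genotype labels, as the KO-labelled change minus the WT-labelled change. No member was called by limma, with 0.875% of all tested genes called, and none had an unadjusted p under 0.05, as 16.1% of all tested genes did. The difference in response was 0.001 for Gadd45g (adjusted p = 0.999), 0.05 for Tet3 (adjusted p = 0.929), -0.06 for Gadd45b (adjusted p = 0.93) and -0.08 for Tet2 (adjusted p = 0.885). For Dnmt3a it was -0.19 (adjusted p = 0.669), and for Dnmt1 -0.37 (adjusted p = 0.404). The widest gap was that of Gadd45a, at -0.55 (interval -1.10 to 0.01, adjusted p = 0.318). Missing the threshold here does not show that the responses were alike.

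Genes that act with the members were read from lists of readers, partners and substrates. Of the methyl-CpG readers, which bind methylated DNA, 11 of 12 were tested, and the counts in the WT-labelled exploration comparison were 0 higher and 1 lower. Mbd6 fell by 0.69 (adjusted p = 0.01), from 8.01 ± 0.88 FPKM (SD, n = 2) to 4.57 ± 0.37 FPKM (SD, n = 3). In the KO-labelled comparison 1 rose and 4 fell, among them Mbd6 (-0.61), Zbtb38 (-0.57) and Mbd5 (-0.41), so that 5 of 11 were called where 28.6% of all tested genes were, and 1 of 11 under the WT label where 6.31% were. Mbd2, which rose by 0.22, is named only to complete that count. The median over this list was -0.067 under the WT label and -0.243 under the KO label.

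Among the partners of the methyltransferases, 8 of 13 were tested. None was called under the WT label. Under the KO label Hdac2, a histone deacetylase, rose by 0.41, while Hdac1 (-0.45) and Dmap1 (-0.30), which binds Dnmt1, fell. These 3 of 8 stand beside the 28.6% of all tested genes called under that label. The list's medians were -0.02 and -0.173.

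The list of Tet partners and enzymes for oxidised cytosine had 15 of 18 genes tested. Under the WT label Qser1, which has been reported to act with Tet1 against methylation, fell by 0.48. It was the only 1 of 15 called, beside 6.31% of all tested genes under that label. Under the KO label 1 rose and 5 fell, 6 of 15 beside the same 28.6%. Idh2, a mitochondrial enzyme that makes the Tet cosubstrate 2-oxoglutarate, rose by 0.39, while Cxxc4 (-0.47), D2hgdh (-0.39) and Qser1 (-0.37) fell. The list's medians were 0.007 and -0.144.

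In the methyl donor cycle, which supplies S-adenosylmethionine, 12 of 15 genes in the tables were tested. Under the KO label Mat2b (0.50), Ahcy (0.28) and Amd1 (0.20) rose and none fell, 3 of 12 beside the same 28.6%. Of 15 tested Gadd45 partners, which include stress kinases, none was called under the WT label. Under the KO label Map2k4 fell by 0.21, 1 of 15 beside the same 28.6%.

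Among the genes tied to Gadd45b or Tet1 in activity-dependent demethylation, the transcription factor genes and Arc had the largest changes, and Bdnf and Fgf1 had small ones. Of 7, 5 rose under the WT label: Egr2 (2.59), Fos (2.55), Arc (1.65), Egr4 (1.24) and Fgf1 (0.50), the last named to complete the count. Under the KO label 6 rose, led by Fos (2.45), Egr2 (1.74), Arc (1.69) and Npas4 (1.47). Beside these counts, 6.31% of all tested genes were called under the WT label and 28.6% under the KO label. Bdnf stood at 0.13 (not called) under the WT label and rose by 0.32 under the KO label (adjusted p = 0.026), and Fgf1 stood at -0.05 under the KO label (adjusted p = 0.761). Gadd45b, at 0.85 and 0.79, lay above Bdnf and Fgf1 under both labels and above Npas4 (0.63, adjusted p = 0.0728) under the WT label. The list's medians were 1.235 and 1.466.

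Fos, a transcription factor induced by neuronal activity, stood at 16.28 and 2.50 FPKM in the WT-labelled home cage libraries, which thus already differed. After exploration it stood at 41.15, 43.66 and 49.65 FPKM. In the KO-labelled libraries it stood at 7.16 and 6.72 FPKM in the home cage and at 44.21, 36.10 and 47.60 FPKM after exploration. WT-labelled home cage library 1, the higher for Fos, was also the higher for Gadd45b and Gadd45g. Its choroid plexus markers were higher as well, at 235.00 FPKM against 17.66 FPKM in library 2. A difference between these animals cannot be told apart from a difference in the tissue cut.

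Npas4, an activity-induced factor of neurons, stood at 9.83 and 5.30 FPKM WT-labelled and at 3.36 and 4.10 FPKM KO-labelled in the home cage. After exploration it stood at 11.74, 11.11 and 12.47 FPKM WT-labelled and at 14.02, 11.91 and 10.39 FPKM KO-labelled. Between genotype labels, the list genes called were Fgf1 (0.79, adjusted p = 0.0147) and the Tet partner Cxxc5 (0.45, adjusted p = 0.0412), both higher in the KO-labelled home cage libraries. Over the mean of both environments Fgf1 (0.51, adjusted p = 0.0175) was higher and Mbd6 (-0.50, adjusted p = 0.0229) lower. After exploration no list gene was called by limma.

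**Figure D5:**
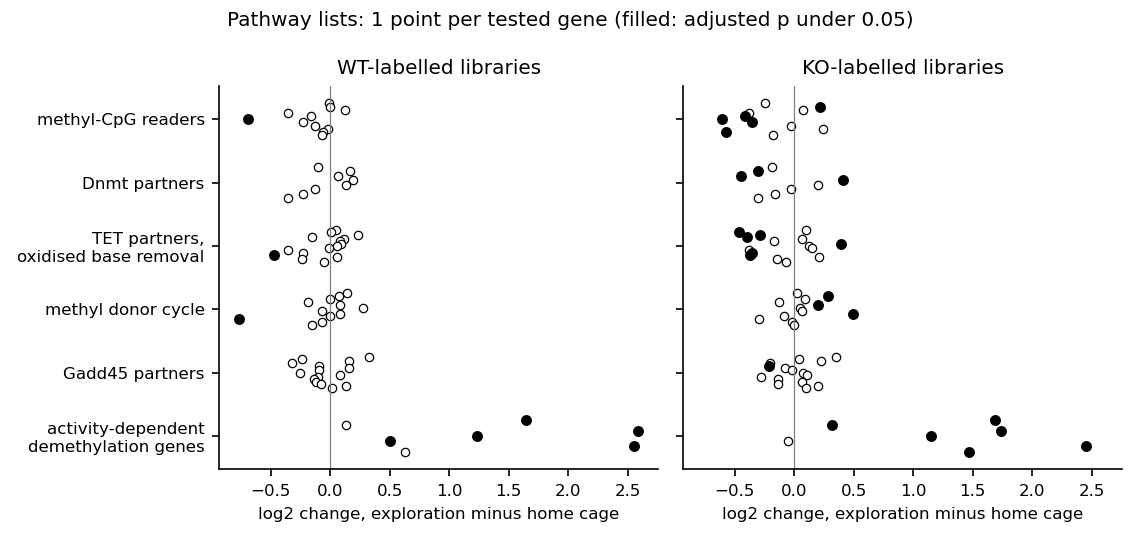
Log2 change after exploration (x axis) for each tested gene of the 6 lists, in the WT-labelled and the KO-labelled libraries. Points are genes, filled where the adjusted p was under 0.05. Called genes of the activity list reach 2.59 and 2.45, while the called genes of the 5 other lists lie nearer to 0, such as Mbd6 at -0.69 and -0.61.

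The genes whose level followed each called member most closely over the 10 libraries are given as a description. Candidates were 8236 tested genes with a mean of at least 5 FPKM, and the measure was Pearson's r of log2(FPKM + 1). For Dnmt3a they were R3hdm1 (0.985), Clasp2 (0.984) and Kif21b (0.982), for Tet2 Fam13a (0.986), Vash1 (0.98) and Sox12 (0.979), and for Tet3 Nek9 (0.986), Mkl2 (0.985) and Usp48 (0.985). For Gadd45b they were Btg2 (0.976), itself an immediate early gene, Rps18 (0.967) and Rtfdc1 (0.964). For Gadd45g they were Chmp6 (0.977), Dctpp1 (0.971) and Churc1 (0.966). The libraries fall into 2 environments, and each r was taken over both.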

How the data were processed

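Per the labels, a BGISEQ instrument read both ends of each fragment for 100 bp. The authors deposited FPKM per gene and library, in a table of 19156 genes for exploration and one of 18257 genes for the home cage. The submitters' processing notes name HISAT, StringTie, Bowtie2, RSEM, GATK and the builds GRCm38 and mm10, with no versions. The use of strand, and whether the tables were normalized together, are not given in the sources used here. Of 16 samples in the labels, the 6 of a learning condition were not analysed here.

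The tables were joined on gene ID (17986 shared genes). Genes with at least 1 FPKM in 2 libraries (11892) entered limma 3.58.1 (R 4.3.3) as log2(FPKM + 1), with a variance trend, 1 mean per group over 10 libraries (6 residual and 5.71 prior degrees of freedom) and Benjamini-Hochberg adjustment. The fit was tested on simulated data. FPKM are not counts, so depth was estimated from the spacing of values of 0.08 to 0.6 FPKM, and it limits the low genes. Transcript lengths and GC content, known for 99% of tested genes, were taken from GENCODE, and gene positions and promoters from RefSeq tables of GRCm38.p6. Replicates were separate animals, and the fit measures the spread between them.

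Members and lists were chosen with earlier results of these data known. Named were all 9 members, Neil3, Fos and Npas4, up to 4 called genes per list and comparison by absolute change (some are not reported here), and the 3 tested genes most correlated with each called member. The alternatives were a filter of 5 FPKM, no filter, a pseudocount of 0.1, size factors, quantile normalization, no variance trend, only the groups compared and each library left out. The removal of length and GC trends (loess, span 0.5) and the fit without 3 libraries high in choroid plexus markers were added after the data had been seen.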

Additional observations from a re-analysis of the deposited data

How the results depend on the processing

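No member was called in the genotype comparisons or the difference in response under any alternative run. Under the WT label, where 4 members were called after exploration, a filter of 5 FPKM gave 2 (fewer members entered), the fit without the 3 libraries high in choroid plexus markers 0, and leaving out single libraries 0 to 5. Under the KO label, with 5 called, the filter of 5 FPKM gave 3 and leaving out single libraries 3 to 5. Dnmt3a, Tet2, Tet3, Gadd45b and Gadd45g kept their direction in the exploration comparisons in every alternative in which they were tested. The values that changed sign were all small and uncalled. With length and GC trends removed they were Dnmt1 under the WT label after exploration (0.0512) and between genotypes over both environments (0.0109), and Gadd45b between genotypes after exploration (0.00623). With quantile normalization they were the same Dnmt1 values (0.0858 and 0.0255) and the response difference of Gadd45g (-0.0148), and with size factors Gadd45b between genotypes after exploration (0.0178). Without the choroid-high libraries they were Dnmt1 between genotypes over both environments (0.15), the response differences of Dnmt3a (0.0376), Tet2 (0.0326) and Gadd45g (-0.25), and Gadd45g between genotypes in the home cage (0.0733). The cause was not tested.

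Leaving out single libraries, the log2 values that changed sign ranged as follows. Dnmt1 ranged from -0.19 to 0.11 under the WT label after exploration and from -0.0978 to 0.0757 between genotypes over both environments. Dnmt3a between genotypes in the home cage ranged from -0.253 to 0.071, and the response differences of Tet2 and Tet3 from -0.214 to 0.0536 and from -0.11 to 0.21. Gadd45a between genotypes after exploration ranged from -0.284 to 0.0166. Gadd45b ranged from -0.0795 to 0.181 between genotypes in the home cage, from -0.123 to 0.137 after exploration, from -0.0416 to 0.0939 over both, and from -0.185 to 0.0862 in the response difference. Gadd45g ranged from -0.256 to 0.0733, from -0.285 to 0.0617 and, in the response difference, from -0.19 to 0.17.

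Over all genes, the counts called moved by more than 1.5 times with several choices. Leaving out single libraries gave 84 to 1004 under the WT label after exploration (750 in all libraries), 505 to 3568 under the KO label (3400), 13 to 588 between genotypes in the home cage (425), 17 to 104 after exploration (71), 28 to 319 over both (253) and 0 to 436 for the response difference (104). Fitting only the groups compared gave 1690 and 1705 in the exploration comparisons and 36 between genotypes after exploration. Without a filter, 47, 16 and 54 were called between genotypes and 0 for the response difference, which was also 0 with a pseudocount of 0.1 or no variance trend and 68 with a filter of 5 FPKM. That filter gave 492 under the WT label, and no variance trend 37 between genotypes after exploration. With trends removed, 484 were called under the WT label, 504 between genotypes over both environments and 44 for the response difference. Without the choroid-high libraries the 6 counts were 39, 1710, 15, 4, 22 and 0. Size factors raised the share of higher calls under the KO label from 42% to 54.4%, and quantile normalization that between genotypes over both environments from 36.4% to 50.4% of 427. No paired analysis was possible because the labels give the groups no shared replicate numbers.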
